A study of Danio rerio with 6 samples.

Results

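Cells that swallow dying neighbours push out their membrane with a signalling relay that ends on the actin cytoskeleton. The adaptors Crk and Crkl and the scaffold protein Elmo bring the exchange factor Dock1 (also called Dock180) to the membrane, Dock1 loads the small GTPase Rac1 with GTP, and active Rac1, with its relative Cdc42, switches on the factors that branch actin filaments under a phagocytic cup. The order of this relay was worked out largely in the nematode and in mammalian cells. In the early zebrafish embryo the outer epithelial sheet, the enveloping layer (EVL), is known to take up dying cells with phagocytic cups and arm-like protrusions. The 10 genes of this relay examined here are elmo1, elmo2, elmo3, dock1, rac1a, rac1b, cdc42, cdc42l, crk and crkl. They were chosen by name, and each of the 10 names matched 1 of 31953 genes in the files. Their sequences and genome positions were not analysed here.

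GFP-positive (GFP+, EVL) cells were compared with GFP-negative (GFP-, non-EVL) cells, both sorted from dissociated Tg(krt18:krt18-GFP) zebrafish embryos at 6 hpf (hours after fertilisation). All libraries carry the same transgene, a keratin fused to GFP under the krt18 promoter, so the sort rests on keratin reporter brightness. Each group had 3 libraries of SMARTseq2-amplified RNA from pooled embryos, about 1500 per suspension, with 10000 GFP+ cells sorted. How many GFP- cells were sorted is not given, so the input to amplification of that group is not known. The labels do not state whether replicates are separate clutches, so the p-values reflect only the variation among these libraries, part of which may be technical.

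Values are normalised reads: reads assigned to a gene divided by 1 size factor per library. Libraries held 32187658 to 38326835 assigned reads in the GFP+ group and 36734889 to 46144557 in the GFP- group. EVL markers were higher in GFP+ cells in 18 of 18 genes, with a summed level of 760544 to 2476450 normalised reads against 42259.6 to 60185.6 in GFP- cells. This list includes krt18, the gene of the reporter used for the sort. Its difference is therefore not independent of the sort, and its reads may come in part from the transgene. Sums without krt18 were not computed. The highest GFP+ sum was in replicate 1, which also had the lowest GFP+ sum of 18 deep cell markers (92047.4, against 167067 and 186673 in replicates 3 and 2, and 135254 to 204989 in GFP- cells). In that deep cell list 6 genes were lower and 2 were higher in GFP+ cells, the higher ones being the endoderm genes sox32 and sox17. Of 8 germ cell markers 3 were lower and 0 higher, and 5 tested yolk syncytial layer markers gave 0 calls. Of all tested genes, 8.80% were called higher and 0.676% lower. All marker lists were chosen with earlier results of these data known, so their counts are not an independent check of the sort. Of 18 macrophage and leukocyte markers, 7 were tested and 2, lcp1 and lmo2, were higher. Their summed level of 4778.57 to 9867.77 normalised reads in GFP+ cells, against 821.873 to 1630.76 in GFP- cells, lay mostly in these 2 genes in the GFP+ libraries. The median log2 fold change of the 7 tested markers was 0.81. Of all 18, 2 were at 0 in every GFP+ library (spi1b and mpeg1.1) and 3 in every GFP- library (lyz, mpx and mpeg1.1), while spi1b had 1.74, 14.7 and 0 normalised reads in GFP- replicates 1, 2 and 3.

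No relay gene was called different between EVL and non-EVL cells. Of the 10, 9 passed the minimum of 10 normalised reads in at least 3 libraries, and 0 of these 9 were called higher and 0 lower (limma on log2(value + 1), Benjamini-Hochberg adjusted p under 0.05 over 15971 genes). Over all tested genes 8.80% were called higher and 0.676% lower. At an unadjusted p under 0.05 there was 1 gene, cdc42l, where 23.0% of all tested genes passed. DESeq2 called 1 of the 9, cdc42l, with 12.5% of all genes higher and 2.05% lower, while edgeR with TMM scaling (8.90% and 0.326% of all genes) and limma-voom (7.59% and 0.294%) called 0. The log2 fold changes (GFP+ over GFP-) had a median of 0.037, beside -0.057 over all genes, and 0 of 9 were beyond 1 in size, beside 20.4% of all genes. The groups did not overlap in 3 of the 9, cdc42l and elmo3 (higher) and crk (lower), a share close to the 30.9% of all tested genes that do not overlap (17.4% higher and 13.5% lower). In bulk RNA of sorted cells, fewer cells expressing a gene and less RNA per cell cannot be told apart.

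**Figure D1:**
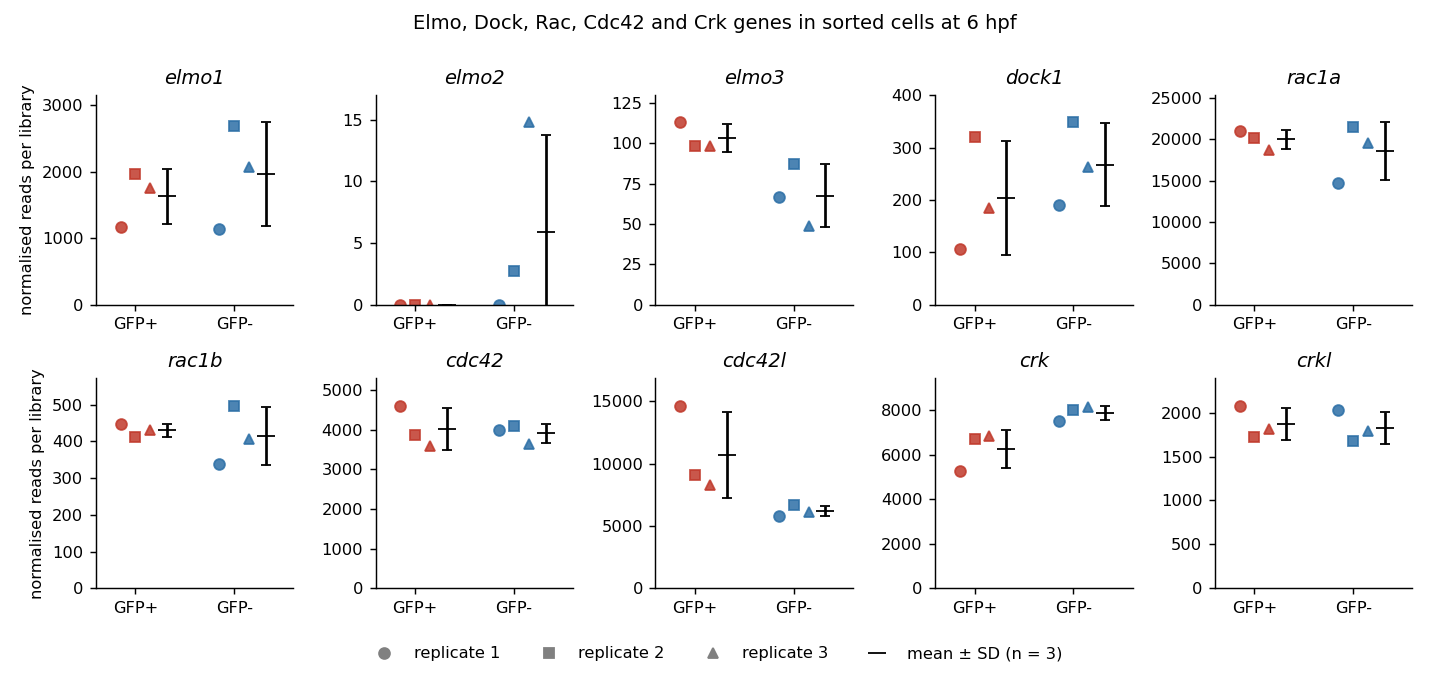
Normalised reads of the 10 genes in each library (vertical axes start at 0 and differ between genes), with GFP+ libraries in red, GFP- libraries in blue, marker shape for the replicate number, and black bars for mean ± SD. Only cdc42l, elmo3 and crk have groups that do not overlap, and elmo2 has reads in 2 GFP- libraries alone.

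Of the Elmo scaffolds, which bind Dock proteins and couple them to upstream receptors and to the GTPase RhoG, elmo1 (ENSDARG00000098753) had 1164, 1960 and 1758 normalised reads in GFP+ replicates 1, 2 and 3, against 1142, 2690 and 2075 in GFP- replicates 1, 2 and 3. The groups overlapped, and replicate 1 was the lowest library in each. Its log2 fold change was -0.22 (SE 0.34, 95% interval -0.99 to 0.55; limma, adjusted p = 0.745). Without GFP+ replicate 1 it was 0.0017 and without GFP- replicate 2 it was 0.046, so no direction can be given.

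The paralogue elmo3 (ENSDARG00000042126) had 113, 98.5 and 98.1 normalised reads in GFP+ replicates 1, 2 and 3, against 66.9, 87.3 and 48.6 in GFP- replicates. All GFP+ libraries stood above all GFP- libraries, but by little. This was a log2 fold change of 0.64 (SE 0.36, 95% interval -0.18 to 1.46; limma, adjusted p = 0.336), so the interval reached from slightly lower to 2.76-fold higher. These values rest on 86, 89 and 87 reads in GFP+ libraries against 77, 95 and 69 in GFP- libraries. As CPM (reads scaled by the library's total, most abundant gene included) the groups overlapped (2.67, 2.32 and 2.52 against 2.096, 2.44 and 1.495), so their separation depended on the size factors.

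The third scaffold gene, elmo2 (ENSDARG00000063527), had few or no reads in either group and did not pass the minimum. It had 0 reads in each GFP+ library, which allows up to 3 reads or 3.95, 3.32 and 3.38 normalised reads in replicates 1, 2 and 3. It had 0, 3 and 21 reads in GFP- replicates 1, 2 and 3. Nearly all of its reads thus lay in 1 GFP- library, and limits and read numbers here cover counting error only. With no minimum on the values, limma gave a log2 fold change of -1.96 (adjusted p = 0.306).

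The exchange factor dock1 (ENSDARG00000099093) had 107, 321 and 185 normalised reads in GFP+ replicates 1, 2 and 3, against 190, 349 and 263 in GFP- replicates. The groups overlapped, and the coefficient of variation was 53.1% in GFP+ libraries, the largest of the 9 tested genes there, and 29.7% in GFP- libraries. A log2 fold change of -0.48 (SE 0.44; limma, adjusted p = 0.564) had a 95% interval from -1.49 to 0.52, the widest of the 9. It moved to -0.090 without GFP+ replicate 1, -0.27 without GFP- replicate 2 and -0.88 without GFP+ replicate 2. As with elmo1, replicate 1 was the lowest library in each group.

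The GTPase gene rac1a (ENSDARG00000074849), encodes the switch at the end of the relay. It had 21036, 20208 and 18747 normalised reads in GFP+ replicates 1, 2 and 3, against 14731, 21538 and 19533 in GFP- replicates. The GFP+ libraries lay inside the range of the GFP- libraries. The fitted difference was 0.12 on the log2 scale (SE 0.17; limma, adjusted p = 0.723), and its 95% interval of -0.27 to 0.51 reached 1.202-fold lower and 1.42-fold higher. Its paralogue rac1b (ENSDARG00000087954) had 446, 411 and 432 normalised reads in GFP+ replicates and 339, 497 and 405 in GFP- replicates. These groups also overlapped, with a log2 fold change of 0.071 (SE 0.23, 95% interval -0.46 to 0.60; limma, adjusted p = 0.890).

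Cdc42 is a GTPase related to Rac that also sets cell polarity, and its 2 genes here gave unlike values. The gene cdc42 (ENSDARG00000044573) had 4606, 3871 and 3583 normalised reads in GFP+ replicates 1, 2 and 3, against 4002, 4092 and 3640 in GFP- replicates. The groups overlapped, and the fitted difference was 0.033 on the log2 scale (SE 0.16; limma, adjusted p = 0.924) with a 95% interval of -0.33 to 0.39, that is 1.25-fold lower to 1.31-fold higher. As CPM its GFP+ libraries (109, 91.2 and 92.0) lay below its GFP- libraries (125, 114 and 112). Scaling to library size alone, as CPM does, moved the median of all genes by -0.30 in limma. The gene cdc42l (ENSDARG00000040158) had 14657, 9129 and 8268 normalised reads in GFP+ replicates, against 5830, 6670 and 6151 in GFP- replicates. Each GFP+ library lay above each GFP- library, also as CPM (346, 215 and 212 against 183, 187 and 189).

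The log2 fold change of cdc42l was 0.74 (SE 0.22, 95% interval 0.23 to 1.25), or 1.67-fold. It had an unadjusted p of 0.0104 and missed the threshold after adjustment (limma, adjusted p = 0.0853), and DESeq2 called it (0.79, adjusted p = 0.0403). Its adjusted p ranged from 0.0403 to 0.212 over 18 alternatives, all with a higher level in GFP+ cells. GFP+ replicate 1, the library with the highest EVL marker sum, was the highest. Without it the log2 fold change of cdc42l was 0.48 (limma, adjusted p = 0.104). Among tested genes, those with clone names left out, the 3 whose pattern over the 6 libraries was most like that of cdc42l were chp1, mtpn and dpm2. Their root mean square differences of mean-centred log2 values were 0.030, 0.056 and 0.083.

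Of the adaptor genes, crk (ENSDARG00000055635) had 5282, 6701 and 6839 normalised reads in GFP+ replicates 1, 2 and 3, against 7532, 7990 and 8146 in GFP- replicates. All GFP+ libraries lay below all GFP- libraries, as they did in CPM (125, 158 and 176 against 236, 224 and 250.5). For crk this gave a log2 fold change of -0.34 (SE 0.15, 95% interval -0.69 to 0.015; limma, adjusted p = 0.238), a level 1.27-fold lower. It was called lower with libraries scaled to their size alone (-0.65, limma, adjusted p = 0.0390, with 8.25% of all genes higher and 7.46% lower; -0.63, edgeR, adjusted p = 0.0488, with 7.95% and 5.66%), a scaling that moved the median of all genes by -0.30 in limma and -0.32 in edgeR. Its relative crkl (ENSDARG00000028699) had 2080, 1726 and 1819 normalised reads in GFP+ replicates, against 2025, 1672 and 1787 in GFP- replicates. The 2 ranges nearly coincided (log2 fold change 0.037, SE 0.16, 95% interval -0.34 to 0.41; limma, adjusted p = 0.920).

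**Figure D2:**
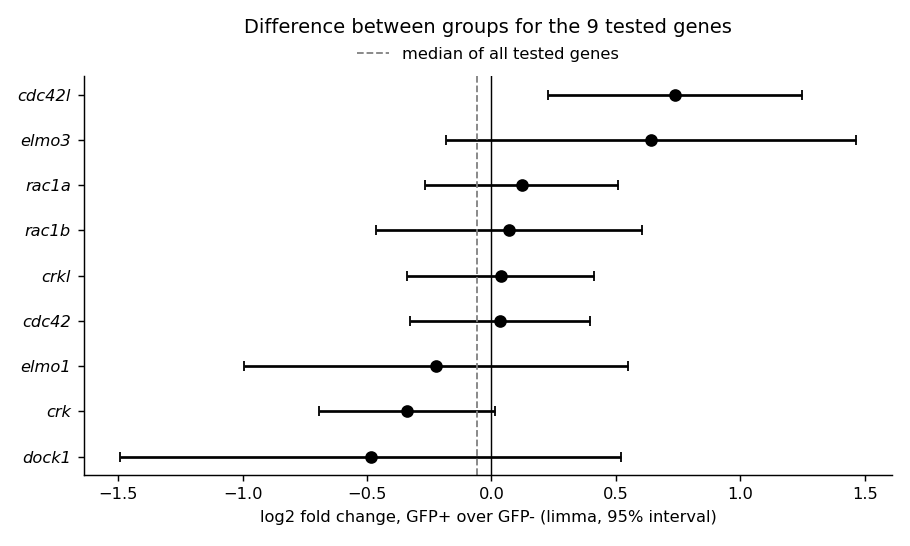
The log2 fold change of each of the 9 tested genes, GFP+ over GFP-, with its 95% interval from limma, the solid line at 0 and the dashed line at the median of all tested genes (-0.057). The intervals of 8 of the 9 hold 0, that of cdc42l does not before adjustment, and those of elmo1, elmo3 and dock1 are the widest.

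The intervals show how much change these libraries could hide. For 6 of the 9 genes, elmo1, rac1a, rac1b, cdc42, crk and crkl, the 95% interval lay within 2-fold in both directions. For 3 of them, rac1a, cdc42 and crkl, the interval lay within 1.5-fold in both directions. The intervals of cdc42l, elmo3 and dock1 reached past 2-fold on one side. These intervals are not adjusted for the number of genes. They also hold for the size factors used and do not cover a change of scaling. With library size alone (limma) the log2 fold change was -0.27 for cdc42, -0.65 for crk and -0.53 for elmo1.

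The sign of 4 genes depended on the scaling between libraries. With library size alone (limma and edgeR), upper quartile scaling or the total outside the most abundant gene, rac1a, rac1b, cdc42 and crkl all had negative log2 fold changes, from -0.28 to -0.047, while the median over all genes shifted by -0.17 to -0.32. Relative to the median of all genes under the same setting, the 4 genes lay between -0.024 and 0.29 over 18 alternatives, cdc42l between 0.53 and 0.96 and crk between -0.37 and -0.17, and elmo3 between 0.48 and 0.90 over the 17 that tested it. A change of scaling shifts nearly all genes alike, so subtracting the median removes most of its effect by construction. These ranges are therefore no test of the scaling.

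**Figure D3:**
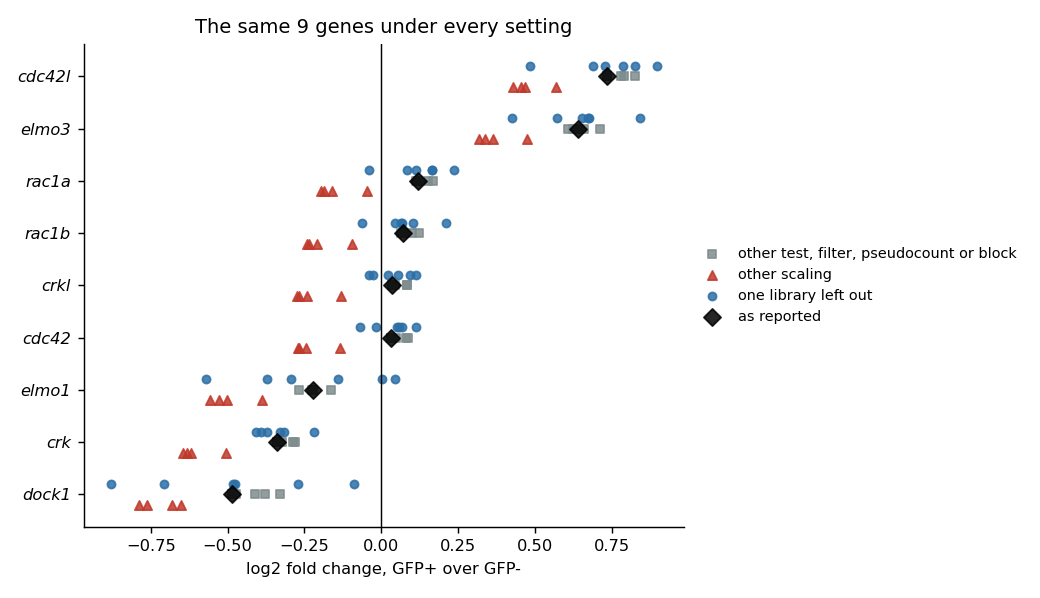
The log2 fold change of the same 9 genes, GFP+ over GFP-, as reported (diamond), with each library left out in turn (circles), under other scalings (triangles) and under other tests, filters, pseudocounts or the replicate block (squares). In every setting shown cdc42l and elmo3 lie above 0 and crk and dock1 below, and rac1a, rac1b, cdc42 and crkl lie below 0 under the other scalings.

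Ratios of related genes within a library do not depend on the scaling between libraries, and 7 such ratios were compared between groups; gene length was not taken into account, so a ratio does not give the relative level of its 2 genes (exact two-sided permutation tests, 3 against 3 libraries, where 0.10 is the smallest possible p; Benjamini-Hochberg over the 7). The log2 ratio of cdc42l to cdc42 was 1.67, 1.24 and 1.21 in GFP+ replicates 1, 2 and 3, against 0.54, 0.70 and 0.76 in GFP- replicates. The groups did not overlap and differed by 0.70, or 1.63-fold (exact permutation p = 0.10, adjusted 0.233). Without GFP+ replicate 1 the difference was 0.55, the smallest over the libraries left out.

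The ratio of rac1b to rac1a was the steadiest, with log2 values of -5.55, -5.62 and -5.44 in GFP+ libraries and -5.44, -5.43 and -5.59 in GFP- libraries. Its difference of -0.049 was under the spread within either group (SD 0.092 and 0.087; exact permutation p = 0.60, adjusted 0.60). The ratio of crkl to crk was -1.34, -1.96 and -1.91 in GFP+ libraries and -1.89, -2.26 and -2.19 in GFP- libraries, with overlapping groups and a difference of 0.38 (exact permutation p = 0.30, adjusted 0.42).

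The ratio of elmo3 to elmo1 was -3.35, -4.30 and -4.15 in GFP+ libraries and -4.07, -4.93 and -5.39 in GFP- libraries, which overlapped (difference 0.86, exact permutation p = 0.30, adjusted 0.42). The ratio of dock5, a close relative of dock1, to dock1 was 0.13, -0.88 and -0.48 in GFP+ libraries and -1.65, -0.69 and -0.11 in GFP- libraries (difference 0.41, exact permutation p = 0.50, adjusted 0.583). Without GFP- replicate 1 that difference was -0.0088. The 2 ratios with elmo2 differed by -1.74 (to elmo1) and 2.604 (elmo3 to elmo2), each with exact permutation p = 0.10 and adjusted 0.233, and rest on the few GFP- reads of elmo2 and on the added 1.

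**Figure D4:**
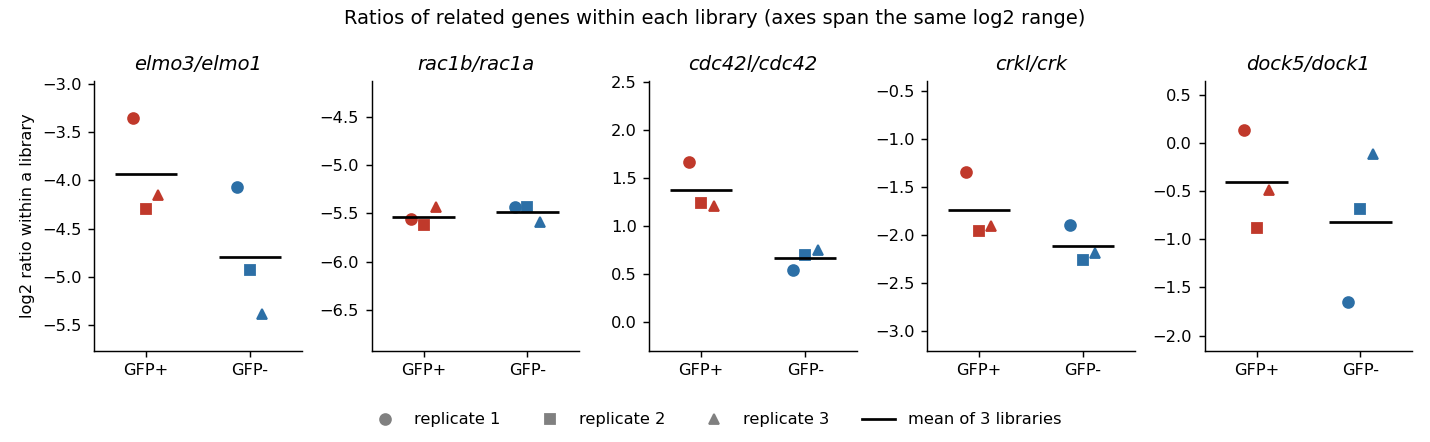
The log2 ratio of 2 related genes within each library for 5 pairs, GFP+ in red and GFP- in blue, with the mean of 3 libraries as a bar and marker shape for the replicate number. Of these pairs only cdc42l/cdc42 separates the groups, and rac1b/rac1a varies least.

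Close copies limit the paralogue values. Reads were 50 nt long and the files do not say how reads matching several genes were counted, so reads of rac1a and rac1b, or of cdc42, cdc42l and cdc42l2, could be shared. The third Cdc42 gene, cdc42l2, named after its values were seen, had 58.0, 12.2 and 16.9 normalised reads in GFP+ replicates 1, 2 and 3 against 19.98, 11.9 and 4.23 in GFP- replicates (log2 fold change 1.098; limma, adjusted p = 0.464).

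Around the core, 169 tested genes on 7 lists of exchange factors, GTPase relatives, brakes, Crk partners, effectors and receptors held 22 called higher (13.0%, beside 8.80% of all tested genes) and 0 called lower (0.676% of all). Their median log2 fold change was 0.098, beside -0.057 over all genes. That median had the other sign with library size alone (-0.20 in limma, -0.25 in edgeR), upper quartile scaling (-0.18) and the total outside the most abundant gene (-0.066), settings that shift the median over all genes as given above. At an unadjusted p under 0.05 the lists held 57 genes (33.7%, beside 23.0% of all tested genes). The lists were chosen with earlier results of these data known. Their shares beside those of all genes are therefore not an independent test of the pathway.

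Dock proteins load Rac or Cdc42, and of 8 tested besides dock1, 0 were called in either direction, with 1 at an unadjusted p under 0.05. Their median of 0.010 moved with single libraries: it was -0.40 without GFP- replicate 1 and 0.39 without GFP- replicate 3. Of the 8, dock6 had 346, 390 and 413 normalised reads in GFP+ replicates against 256, 183 and 228 in GFP- replicates, without overlap (log2 fold change 0.79; limma, adjusted p = 0.0989), and DESeq2 called it higher (adjusted p = 0.0132).

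Of 17 tested relatives of Rac1 and Cdc42, 0 were called in either direction (median 0.12; 2 at an unadjusted p under 0.05). Also named after its values were seen, rac2, the leukocyte Rac gene of mammals, had 666, 974 and 723 normalised reads in GFP+ replicates against 492, 989 and 835 in GFP- replicates (0.069; limma, adjusted p = 0.917). Chosen in the same way, rhogc, a gene for RhoG, which in mammals activates Elmo, had 1336, 1718 and 1873 normalised reads in GFP+ replicates against 2354, 2567 and 2592 in GFP- replicates. The groups did not overlap (a log2 difference of -0.62 with SE 0.18, adjusted p = 0.0704 in limma). The gene rhogc was called lower in DESeq2 (adjusted p = 0.0360) and with the replicate block (limma, adjusted p = 0.0460). So it was with library size alone (adjusted p = 0.0189 in limma and 0.0256 in edgeR) and upper quartile scaling (limma, adjusted p = 0.0315). It was not called in edgeR with TMM, in limma-voom or with any library left out. The other RhoG genes were also named after their values were seen. Of these, rhogb was higher without overlap (log2 fold change 1.504, adjusted p = 0.303 in limma). The gene rhogd stood at 0.12 with overlap, and rhoga had too few reads to be tested. The list's other gene at an unadjusted p under 0.05 was rhoae, named in the same way. It was higher without overlap (1.218, adjusted p = 0.120 in limma), and DESeq2 called it higher (adjusted p = 0.0396).

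Exchange factors outside the Dock family were called higher in 6 of 28 (21.4%, beside 8.80% of all genes) and lower in 0 (median 0.050, and -0.042 without GFP+ replicate 1). The gene kalrnb, for a Kalirin-type factor that acts on Rac in mammals, had 12362, 11028 and 7108 normalised reads in GFP+ replicates against 757, 646 and 743 in GFP- replicates. That was 13.9-fold higher, with groups far apart (log2 fold change 3.79 with SE 0.22, adjusted p = 0.000647 in limma). The genes plekhg6 (178 ± 105 against 4.30 ± 3.62 normalised reads) and fgd4a (992 ± 592 against 47.9 ± 25.7, n = 3 each), where fgd4a encodes a factor acting on Cdc42 in mammals, rose with log2 fold changes of 5.12 and 4.26. The other 3, named after their values were seen, were arhgef16 (3.76), swap70b (2.97) and itsn2b (2.91). Every GFP- value of plekhg6 (2.61, 1.84 and 8.46 normalised reads) lay under the minimum for the main test. The gene plekhg6 was thus tested through its GFP+ libraries alone, and the size of its fold change rests on few GFP- reads. The uncalled tiam1b, for a Rac exchange factor, had 794, 921 and 1412 normalised reads in GFP+ replicates against 1477, 1603 and 2031 in GFP- replicates (-0.74; limma, adjusted p = 0.120). It was called lower without GFP+ replicate 3 (limma, adjusted p = 0.0404), with library size alone (adjusted p = 0.0377) and with upper quartile scaling (adjusted p = 0.0464), and plekhg4 stood at -0.53 (adjusted p = 0.203).

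Brakes on Rac and Cdc42 were called higher in 3 of 24 (12.5%, beside 8.80% of all genes) and lower in 0 (median 0.42, which was 0.066 without GFP- replicate 2 and -0.037 in edgeR with library size alone). These were arhgap12a (1274 ± 752 against 252 ± 74.8 normalised reads), the chimaerin chn2 (59.3 ± 25.6 against 5.925 ± 2.19) and srgap3 (185 ± 87.2 against 34.5 ± 16.05, n = 3 each), with log2 fold changes of 2.22, 3.07 and 2.36. The count was 1 without GFP+ replicate 2 or GFP- replicate 2, and 2 without GFP+ replicate 1, GFP+ replicate 3 or GFP- replicate 1. DESeq2 called 5 of the 24, and a minimum of 5 CPM left 13 tested and 1 called. Every GFP- value of chn2 (7.82, 6.43 and 3.52 normalised reads) lay under the minimum for the main test. The gene chn2 was thus tested through its GFP+ libraries alone, and the size of its fold change rests on few GFP- reads. The uncalled gdi2, for a dissociation inhibitor of Rab GTPases, stood at 0.54 (limma, adjusted p = 0.115) and racgap1 at -0.42 (adjusted p = 0.302).

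Effectors that carry Rac and Cdc42 signals to actin and polarity complexes were called higher in 10 of 46 (21.7%, beside 8.80% of all genes) and lower in 0. Their median was 0.32, but 0.018 with library size alone (limma), 0.044 with upper quartile scaling and 0.060 in edgeR with library size alone. The gene pard6a, for a polarity protein that binds active Cdc42, had 7568, 3425 and 2279 normalised reads in GFP+ replicates against 115, 143 and 256 in GFP- replicates. It was 24-fold higher (log2 fold change 4.58 with SE 0.46, adjusted p = 0.000759 in limma). The WASP-interacting protein genes WIPF3 (2804 ± 2306 against 96.9 ± 27.6) and wipf2a (2709 ± 1704 against 214 ± 46.4 normalised reads, n = 3 each) rose 24-fold and 11.3-fold. The other 7, named after their values were seen, were baiap2l2b (5.02), limk1b (4.05), baiap2l1a (3.74), waslb (3.72), pard6b (2.43), pard6gb (1.56) and cdc42ep4b (1.502). The cofilin gene cfl1, whose product cuts actin filaments, was abundant and uncalled (41115 ± 6285 against 46033 ± 4315 normalised reads; -0.17, limma, adjusted p = 0.562), as was cfl1l (1.01; adjusted p = 0.125), which DESeq2 called higher (adjusted p = 0.0499).

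Of 27 Crk partners 1 was higher (3.70%, beside 8.80% of all genes) and 0 lower (median -0.23). This was the adaptor nck1a, with 593, 154 and 254 normalised reads in GFP+ replicates against 9.56, 17.5 and 11.3 in GFP- replicates (log2 fold change 4.42 with SE 0.55, adjusted p = 0.00164 in limma). The kinase gene yes1 (-0.37; limma, adjusted p = 0.177) and EFS, for a docking protein bound by Crk (0.19; adjusted p = 0.655), were not called, though yes1 was lower with library size alone (limma, adjusted p = 0.0310). Of 19 receptors and adaptors upstream, 2 (10.5%, close to the 8.80% of all genes) were higher and 0 lower (median 0.020, and -0.051 without GFP+ replicate 3). They were the phosphatidylserine-pathway receptor mertka (log2 fold change 1.88) and megf10 (4.29). The gene megf10 had 92.9 ± 64.9 normalised reads in GFP+ libraries against 4.83 ± 5.64 in GFP- libraries (n = 3 each). Among GFP- libraries only replicate 2 reached the minimum for the main test, and replicate 3 had 0 reads. The size of the megf10 fold change thus rests on few GFP- reads and on the added 1. For megf10 the adjusted p rose above 0.05 without GFP+ replicate 1 or 2, without GFP- replicate 1 or 3, in edgeR with TMM, in limma-voom and with a pseudocount of 0.5. The matrix receptor genes sdc4 (0.77; adjusted p = 0.110) and itgb1b (0.020; adjusted p = 0.976) were not called in limma.

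**Figure D5:**
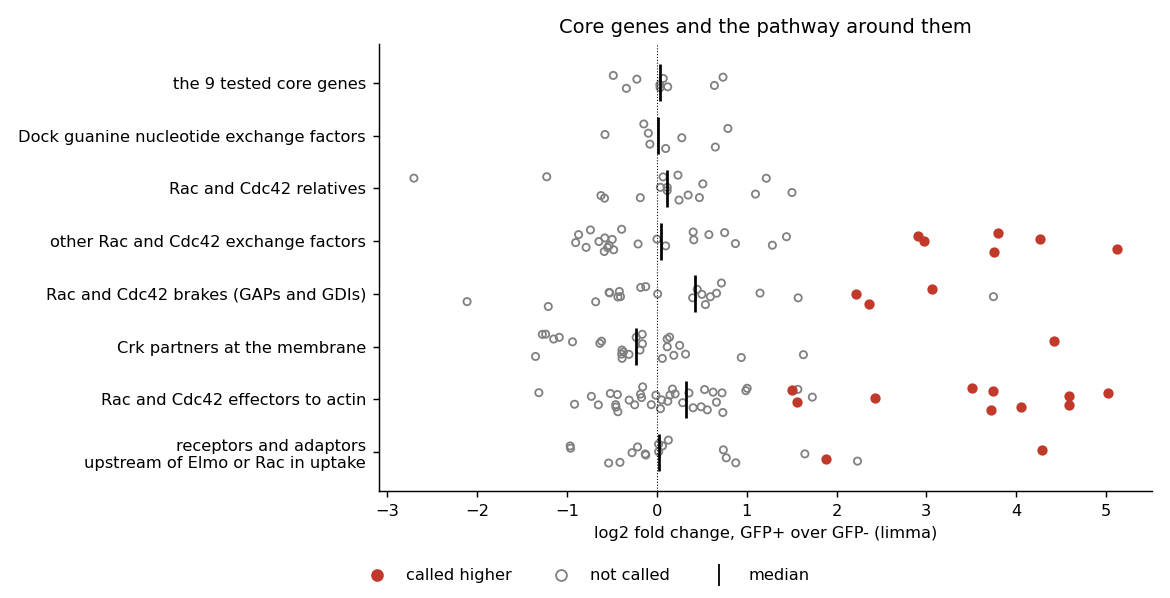
The log2 fold change, GFP+ over GFP-, of the 9 core genes and of the tested genes on 7 pathway lists (core genes left out of the lists), with called genes filled, uncalled genes open and each median as a bar. The called genes lie among exchange factors outside the Dock family (6), brakes (3), effectors (10), Crk partners (1) and receptors (2), and none among the core genes, the Dock family or the GTPase relatives in limma.

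All 22 called list genes had groups that did not overlap, and 17 of them were highest in GFP+ replicate 1, the library with the highest EVL marker sum. These genes were picked by adjusted p from the same libraries, so the lack of overlap adds no support to the calls. The matching shares among all genes called higher were not computed. Without GFP+ replicate 1, 18 list genes were higher and 0 lower. Over all genes, the share called higher was 6.42%, 6.23% and 8.16% without GFP+ replicates 1, 2 and 3 and 8.05%, 6.32% and 6.63% without GFP- replicates 1, 2 and 3. The number called lower, 108 of 15971 with all libraries, was 40, 42 and 77 without the GFP+ replicates and 50, 14 and 22 without the GFP- replicates, in the same order. Over 18 alternatives, 15 of the 22 kept their call in every fit that tested them. The others were chn2, srgap3, arhgap12a, cdc42ep4b, pard6b, limk1b and megf10, with highest adjusted p (limma) of 0.0657, 0.0845, 0.0509, 0.0857, 0.0683, 0.0763 and 0.139. The direction "none lower" depended on the scaling. With library size alone 10 list genes were lower in limma (5.92%, beside 7.46% of all genes) and 8 in edgeR (4.73%, beside 5.66%). With upper quartile scaling the number was 7 (4.14%, beside 3.58% of all genes lower and 8.31% higher). The direction also depended on the test, the model and the libraries with the scaling unchanged. DESeq2 gave 3 lower (1.78%, beside 2.05% of all genes), rhogc, nedd9 and arhgef7b, named after their values were seen. The replicate block gave 3 lower (1.78%, beside 1.75%), and leaving out GFP+ replicate 3 gave 1 (0.592%, beside 0.482%). These shares lay near those of all genes, as did 0 lower with the main test (0.676% of all genes).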

How the data were processed

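RNA of 3 GFP+ and 3 GFP- libraries was sequenced as 50 nt single-end reads, per the labels' protocols. The deposited files hold 1 normalised signal value per gene and library. Per the submitters' processing notes the authors used Trim Galore, STAR 2.6.1d, danRer10, featureCounts and DESeq2. Which annotation was used, whether strand was read and how reads with several matches were treated is not given in the sources used here. Reads have no molecular identifiers.

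Each library's values were whole multiples of its smallest value in 100% of genes (tolerance 0.01 read), which recovers the reads. The main test was limma 3.58.1 (R 4.3.3) on log2(value + 1) by group, with trend and robust shrinkage, for the 15971 genes that reached 10 normalised reads in 3 or more libraries. The added 1 understates changes of low genes. The count tests edgeR 4.0.16 and DESeq2 1.42.0 on the recovered reads were alternatives, beside other scalings, filters and pseudocounts, limma-voom, a replicate block and each library left out. Functions were tested on simulated data, with 50 genes planted at each size of change among 15971. There limma called 2% of genes planted at 1.5-fold, 4% at 2-fold, 48% at 4-fold and 76% at 8-fold. Changes under 2-fold were thus mostly missed. The simulation gave 72 calls in all, fewer than the real data, so its shares do not carry over directly.

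The genes and lists were chosen with earlier results of these data known. Named genes are the 10 core genes and, per list, up to 3 called genes in each direction by adjusted p and the 2 uncalled genes with the highest mean, with the 3 genes most like the core gene of smallest adjusted p (clone names left out). The gene dock5 was named through its planned ratio to dock1. Genes added after their values were seen are rac2, cdc42l2, rhogc and others noted. Some genes the rule names are not reported here. Of the 243 entries of the pathway lists, 213 matched a gene name or its symbol.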

Additional observations from a re-analysis of the deposited data

How the results depend on the processing

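Fold changes of the 9 tested core genes kept their direction and their side of the threshold in 134 of 161 recomputations. DESeq2 called 1 higher, cdc42l, and library size alone called 1 lower, crk, in limma and in edgeR. The sign of rac1a turned to -0.20 (edgeR, library size alone), -0.16 (upper quartile), -0.18 (library size, limma) and -0.047 (total outside the most abundant gene); that of rac1b to -0.24, -0.21, -0.23 and -0.096; that of cdc42 to -0.27, -0.25, -0.27 and -0.13; and that of crkl to -0.28, -0.24, -0.27 and -0.13, under the same scalings. These scalings shift the median over all genes by -0.32 (edgeR) or -0.30 (library size), -0.28 (upper quartile) and -0.17 (total outside the most abundant gene). With 1 library left out, 0 core genes were called in either direction, and signs turned for elmo1 (range -0.57 to 0.046, with 0.0017), rac1a (-0.038 to 0.24), rac1b (-0.063 to 0.21), cdc42 (-0.069 to 0.11, with -0.018), crkl (-0.040 to 0.11, with -0.025) and the dock5 to dock1 ratio (-0.0088 to 0.76).

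Genes called over all were 1405 higher (854 with at least 5 CPM, 995 to 1304 with 1 library left out) and 108 lower. The lower count was 52 in edgeR with TMM, 904 in edgeR with library size, 327 in DESeq2, 47 in limma-voom, 572 with upper quartile scaling, 1191 with library size, 173 with the total outside the most abundant gene and 14 to 77 with 1 library left out. On the lists, 22 of 169 (13.0%) were higher (14 of 96, or 14.6%, with at least 5 CPM, beside 854 of 8527 over all genes) and 0 lower, against 8, 3, 7 and 10 lower in edgeR with library size, DESeq2, upper quartile and library size, and 0 to 1 with 1 library left out. Those lower counts in the 4 settings were 4.73%, 1.78%, 4.14% and 5.92% of the list genes, beside 5.66%, 2.05%, 3.58% and 7.46% of all genes. The cause was not tested.

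Replicate numbers are shared by the groups, but same-numbered libraries deviated together with correlations over genes of 0.26, 0.33 and 0.075 in replicates 1, 2 and 3. Each library correlated best with its own number, a hint from the data and not the design. With the number as a replicate block, limma called 1573 genes (9.85%) higher and 279 (1.75%) lower, 0 core genes in either direction, and 24 list genes higher and 3 lower, tiam1b (adjusted p = 0.0344 in limma) among them. The pair ratios keep their differences under the block, where the smallest exact p is 0.25 (cdc42l to cdc42, 0.70). With at least 5 CPM elmo3 was not tested, and elmo2 was tested only with no minimum. The few reads of elmo2 limit what can be said of it.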
